A study of Homo sapiens with 7 samples.

Results

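The comparison concerns U2OS, an adherent human osteosarcoma line, on the 2 arrays whose titles say manual and the 2 whose titles say automated, 4 of the 7 arrays of the series. They were chosen by title alone, and the question was where in the genome the timing read on manual and on automated arrays still differs once every array has the same spread. Which step was done by hand or by machine is not in the titles. All 4 arrays share the rest of the procedure per the labels: a BrdU pulse at 50 µM for 2 h, 80000 sorted cells, recovery of BrdU-labelled DNA by antibody, and whole-genome amplification. DNA made in early S phase carried Cy3 (green) and DNA made in late S phase carried Cy5 (red) on every array, with no dye swap. Both manual arrays sat on a single slide and in a single scan, while each automated array had a slide of its own, so handling, slide and scan cannot be told apart. Nothing says that the arrays of a group came from separate cultures, so p-values measure only the spread between these arrays, which may be technical.

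Replication timing is the order in which chromosome segments are copied during S phase. Gene-rich, active chromatin tends to be copied early, gene-poor and lamina-associated chromatin late, in domains of up to megabases. Late domains often hold olfactory receptor clusters and very long neuronal genes, and the timing of many domains differs between cell types.

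Timing here is log2(green/red) of background-corrected spot means, averaged in 22946 autosomal windows of 100 kb with 3 or more probes, centred on the median window and scaled to one median absolute deviation. Positive values mean early replication and a positive difference means earlier on the automated arrays. The probes themselves show what is compared. For 5 of the windows with the largest differences, the probe with GC content nearest its window's mean and outside any named gene was taken from the deposited tables (hg19, as the tables print it, G and C in capitals). The first 3 lie in windows that read earlier on the automated arrays, the other 2 in windows that read later.
A_16_P15459715, chr1:221315501-221315560: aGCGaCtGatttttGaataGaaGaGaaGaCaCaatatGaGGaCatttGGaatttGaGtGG
A_16_P17365580, chr5:157905640-157905699: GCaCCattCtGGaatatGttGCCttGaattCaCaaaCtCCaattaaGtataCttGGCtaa
A_14_P135029, chr1:198113245-198113304: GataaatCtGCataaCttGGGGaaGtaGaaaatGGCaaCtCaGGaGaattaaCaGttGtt
A_14_P122394, chr11:5105531-5105590: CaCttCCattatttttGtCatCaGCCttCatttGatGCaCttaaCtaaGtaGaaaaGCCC
A_16_P17486971, chr6:26623952-26624011: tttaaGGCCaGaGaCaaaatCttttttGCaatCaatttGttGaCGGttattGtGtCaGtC
These 5 probes are 35% to 36.7% GC, and the design has a median of 36.7% with quartiles of 35% and 38.3%. Before any centring or scaling, the chromosome 11 probe read 0.16 and 0.57 on the manual arrays against −1.94 and −2.02 on the automated arrays. The chromosome 5 probe read −0.66 and −0.94 on the manual arrays against 1.04 and 0.44 on the automated arrays. The chromosome 6 probe read −0.10 and 0.72 against −1.24 and −1.31. At these 3 probes the groups were apart by more than either pair of arrays. The first chromosome 1 probe read −0.64 and −0.84 against 0.75 and −0.36, and the second read 0.35 and −0.14 against 1.37 and 0.49. At these the groups did not overlap, but the automated arrays differed from each other by more than the gap between groups.

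The arrays differed in brightness. The share of probes well above background in both channels was 53.0% and 35.0% on the manual arrays against 91.5% and 88.3% on the automated ones, and the median absolute deviation of timing before scaling was 0.76 and 0.74 against 1.46 and 1.41. The normexp offset of 50 draws the ratios of dim spots toward 0, and its part in what follows was not tested apart from the settings in the closing section. CDKN2A and MTAP, genes that K562 lacks, were read as a check of the cell line. Their 8 probes read 0.902, 0.798, 0.593 and 0.629 of the median probe's signal on the U2OS arrays. On the 2 K562 arrays of the same design they read 0.287 and 0.483. The U2OS arrays differed among themselves by more than 0.593 from 0.483, so these probes alone tell the lines apart weakly. Window timing correlated at 0.892 or more among the U2OS arrays and at 0.722 or less between U2OS and K562, as a description across windows. DPPA2, a pluripotency gene used as the late control, read −1.38 and −0.95 on the manual arrays against −1.18 and −1.16 on the automated ones, a difference of −0.0043 (limma adjusted p = 0.990). BMP1, a secreted protease gene used as the early control, read 0.41 and 0.19 against 0.66 and 0.65 and did not pass the test (limma adjusted p = 0.147). BMP1 passed without manual 1 (0.52, limma adjusted p = 0.0039), and with no scaling both control windows passed, DPPA2 at −0.74 and BMP1 at 0.66.

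After scaling, 1961 of 22946 windows (8.55%) differed between manual and automated arrays at a limma adjusted p under 0.05. Of these, 864 (3.77%) read earlier and 1097 (4.78%) read later on the automated arrays, and 600 of them had group means of opposite sign, as had 1834 of all windows (7.99%). Correlations across the 22946 windows were 0.930 between the manual arrays, 0.979 between the automated arrays and 0.892 to 0.895 between methods. The SD of the window differences was 0.342 between methods, 0.319 between the 2 manual arrays and 0.164 between the 2 automated arrays. The first of these is a difference of 2-array means and the others of single arrays, so they are not like measures. Between a single manual and a single automated array the SD was 0.383 to 0.389. Groups did not overlap in 13556 windows (59.1%). The number called depended on each array: it was 8455 without manual 1, 8294 without manual 2, 187 without automated 1 and 257 without automated 2, where the lone array left is assumed to vary like the other group. It was 427 with the deposited log ratio and 14653 without scaling.

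Equal median absolute deviations left the tails unequal. The 99th percentile of scaled timing was 1.53 and 1.54 on the manual arrays against 1.18 and 1.16 on the automated arrays, and the 1st percentile was −1.77 and −1.70 against −1.57 and −1.46. At both ends the manual arrays reached further, by more on the early side.

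**Figure D1:**
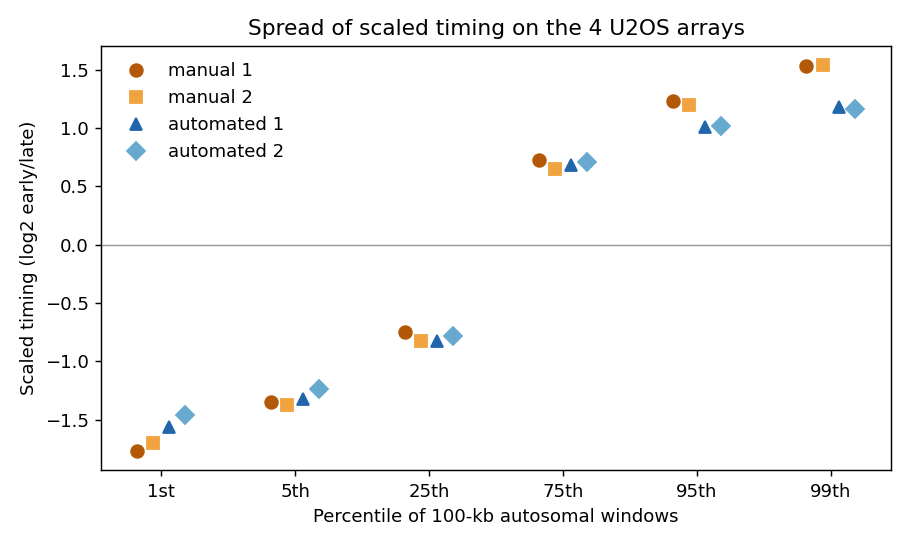
Scaled timing (log2 early over late, y axis) at 6 percentiles of the 22946 windows (x axis), 1 point per array. The 4 arrays lie together at the 25th and 75th percentiles, which scaling nearly fixes, and separate at the 99th, where the manual arrays reach 1.53 and 1.54 and the automated arrays 1.18 and 1.16.

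Windows were next split into 5 equal classes (quintiles) or 3 (tertiles) by each property. Mean timing held the clearest imbalance between directions. In the earliest quintile of mean timing over the 4 arrays, 382 windows read later on the automated arrays and 34 earlier, and the median difference was −0.15, against −0.01 over all windows. The second-earliest quintile moved the other way, with a median difference of 0.06, and the latest quintile gave 0.03. The middle quintile had the most called windows, 13.0%, against 4.99% in the latest quintile. The quintiles are cut on the mean of the same 4 arrays. A window early on the manual and late on the automated arrays, or the reverse, is thereby placed toward the middle. Per array, the median of the earliest quintile minus that of the latest was 2.16 and 2.17 on the manual arrays against 2.04 and 1.98 on the automated ones, without overlap of the groups, and the difference of −0.15 gave an exact permutation p = 0.333 (two-sided), the smallest that 2 against 2 arrays allow. Quantile normalization, which makes the tails equal, turned it to 0.020, and a minimum of 5 probes per window to 0.019. Quintiles were also taken from the new-sorting K562 array, which plays no part in the comparison. In its earliest quintile the median difference was −0.16, and 9.68% of windows were later on the automated arrays. These values were not read after quantile normalization, so they cannot tell the timing class from the unequal tails.

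Probe GC content gave a graded difference. GC is that of the probe, not of the whole window, and its quintiles are narrow, with boundaries at 35.7%, 36.2%, 36.7% and 37.2%. From the lowest to the highest quintile the median difference went from −0.05 to 0.07, the share earlier on the automated arrays from 2.96% to 5.40%, and the share later from 5.62% to 3.66%. Highest minus lowest quintile was 0.67 and 0.50 on the manual arrays against 0.80 and 0.80 on the automated ones. The automated arrays were higher by 0.22 and the groups did not overlap (exact permutation p = 0.333, two-sided). The 2 manual arrays differed from each other by almost as much, with manual 1 minus manual 2 going from 0.01 in the lowest to 0.12 in the highest quintile, whereas automated 1 minus automated 2 stayed between −0.04 and −0.02. Tertiles of GC within a timing quintile kept the positive sign in all 5 quintiles, from 0.01 in the latest to 0.21 in the second-earliest. In the 2 latest quintiles (0.01 and 0.02) the manual and automated arrays overlapped.

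Brightness was taken as the mean log2 signal of both channels over the 4 arrays. Called windows went from 4.58% in the dimmest quintile to 15.5% in the brightest, and windows later on the automated arrays from 1.26% to 10.6%. The median difference went from 0.05 to −0.12 along the same quintiles. On single arrays the brightest minus the dimmest quintile was 0.67 and 0.87 on the manual arrays against 0.76 and 0.67 on the automated ones. Here the groups overlapped (difference −0.05, exact permutation p = 1, two-sided). The sign depended on timing: brightest minus dimmest tertile gave 0.09 and 0.07 in the 2 latest quintiles and was negative in the 3 others. In the earliest quintile the brightest tertile had a median difference of −0.31 and 17.6% of its windows later on the automated arrays, against 1.70% in the dimmest tertile.

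**Figure D2:**
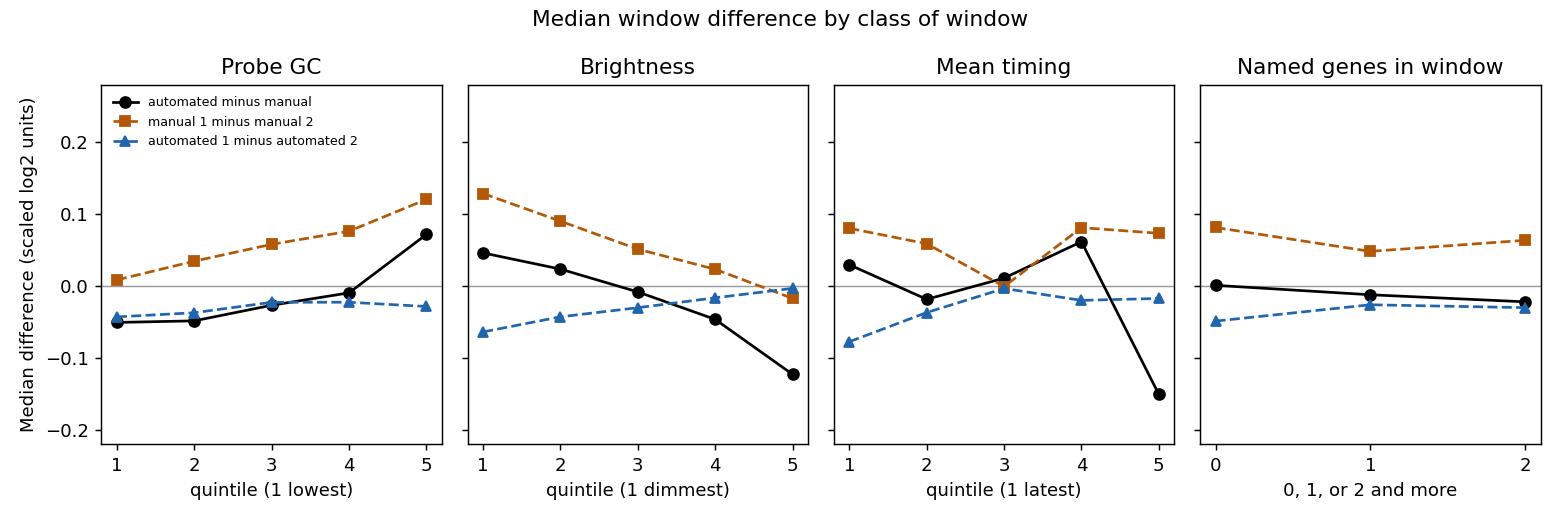
Median difference in scaled timing (y axis, log2 units) by quintile of probe GC, brightness and mean timing and by number of named genes (x axes), for automated minus manual and for the 2 arrays of each method. The earliest timing quintile (−0.15) and the brightest quintile (−0.12) have the lowest medians between methods, and the manual pair differs with GC and brightness about as much as the methods do.

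**Figure D3:**
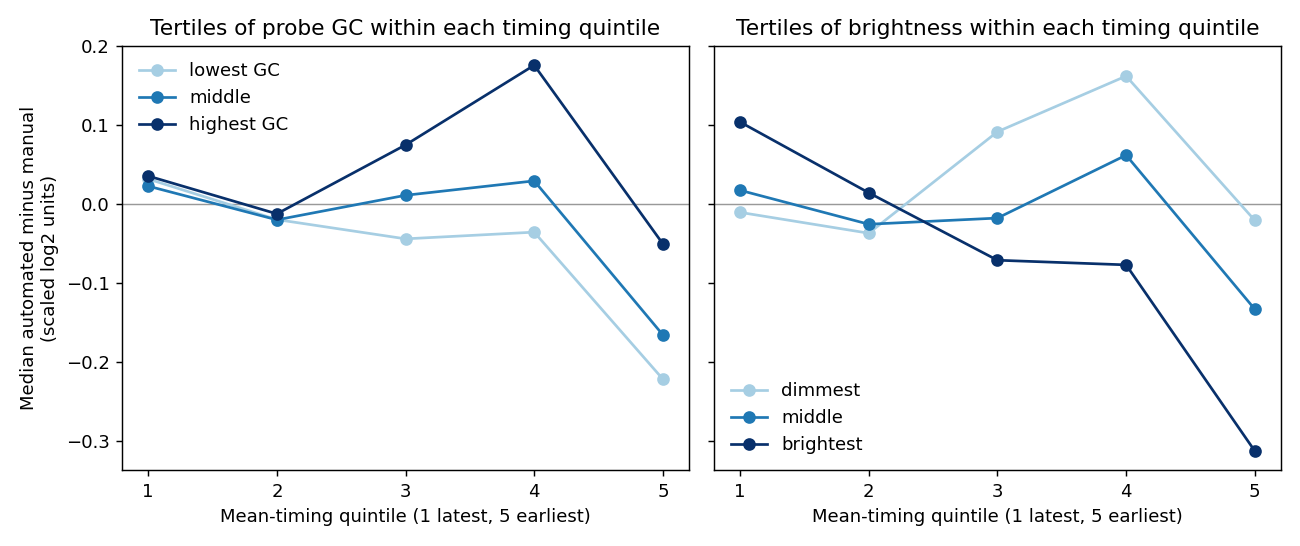
Median automated minus manual difference (y axis, log2 units) in each mean-timing quintile (x axis), split into tertiles of probe GC (left) or brightness (right) within that quintile. The brightest tertile of the earliest quintile lies lowest, at −0.31, and the highest-GC tertile of the second-earliest quintile lies highest, at 0.18.

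Gene content went with little of the difference. Windows whose probes name no gene were called in 8.27%, those naming 1 gene in 8.75% and those naming 2 or more in 8.41%, all near the 8.55% of all windows. The direction differed: 4.22% of windows without a named gene read earlier and 4.05% later, whereas 2.93% of windows with 2 or more genes read earlier and 5.47% later. The timing step from windows without a gene to those with 2 or more was 1.23 and 1.25 on the manual arrays against 1.33 and 1.31 on the automated ones. That step was 0.08 larger on the automated arrays, with no overlap (exact permutation p = 0.333, two-sided), but the difference was −0.08 without dim probes and −0.01 in 250-kb windows. GC, brightness, timing quintile, gene number and chromosome together accounted for 9.93% of the variance of the difference across windows. Timing quintile alone accounted for 4.44%, brightness for 2.36%, GC for 1.80%, chromosome for 1.63% and gene number for 0.18%. The same terms together accounted for 6.14% of manual 1 minus manual 2 and 4.48% of automated 1 minus automated 2. Within these pairs brightness alone accounted for 2.52% and 1.84%, and timing quintile for 0.99% and 2.59%.

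Chromosome 19, the most gene-dense chromosome, had the highest median difference, 0.21, with chromosome medians of 0.37 and 0.24 on the manual against 0.54 and 0.62 on the automated arrays. On it 26 windows read earlier and 8 later, against 864 earlier (3.77%) and 1097 later (4.78%) over all windows. These counts compare the balance of directions, not how often windows were called. Chromosome 13, which is gene-poor, had the lowest median, −0.10. Calls were most frequent on chromosome 18 (12.1% of its windows) and least on chromosome 13 (5.0%). Windows within 5 Mb of the outermost probe of a chromosome had a median difference of 0.10, and 6.72% read earlier and 3.31% later, against 3.48% and 4.93% further in.

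The differences had spatial extent. Neighbouring windows correlated at 0.559 in the difference between methods (20949 neighbour pairs, described across windows). The correlation was 0.271 for manual 1 minus manual 2 and 0.181 for automated 1 minus automated 2. The first is for a difference of 2-array means and the others for single arrays, so they are not like measures. Mean timing itself correlated at 0.948 between neighbours. Windows read later on the automated arrays fell in 752 unbroken runs, and 47.3% of them lay in runs of 2 or more. For windows read earlier these values were 661 runs and 37.2%. The longest earlier run covered 14 windows on chromosome 10, 77300001 to 78700000, over C10orf11 and KCNMA1, the gene of a large-conductance potassium channel. Its mean timing was −0.85 and −1.11 on the manual arrays against −0.18 and −0.08 on the automated ones. Next came 9 windows at 122500001 to 123400000 on the same chromosome, over WDR11 and the growth factor receptor gene FGFR2, with −0.60 and −0.50 against 0.36 and 0.50. Among the runs that read later were 3 of 10 windows. One, on chromosome 1 at 66600001 to 67600000, begins at PDE4B, a cyclic AMP phosphodiesterase gene, and read −0.02 and 0.11 against −0.89 and −0.92. Another, on chromosome 11 at 5000001 to 6000000, holds the beta-globin genes HBB, HBD and HBE1, olfactory receptor genes and TRIM5, and read 0.21 and 0.39 against −0.73 and −0.72. The last, on chromosome 4 at 54200001 to 55200000, ends at PDGFRA and read 1.67 and 1.79 against 0.59 and 0.56. In each of these 5 runs the groups stood further apart than the arrays of either group. The runs were built from called windows, none of which overlapped between groups, so this follows from how they were chosen.

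Called windows of one direction within 500 kb of each other formed 470 earlier and 525 later regions, and those with the largest leading difference were read in each direction. Among those read earlier on the automated arrays, a window on chromosome 1 (221300001 to 221400000) that names no gene led the order. It read −1.19 and −1.44 on the manual arrays against 0.19 and 0.15 on the automated ones, a difference of 1.49 ± 0.15 (limma SE; adjusted p = 0.0130). A window on chromosome 5 (157900001 to 158000000), in a region over EBF1, a transcription factor of B-cell and fat-cell development, read −0.86 and −1.26 against 0.32 and 0.50. NEK7, a kinase gene of mitosis and the inflammasome, lay in a window on chromosome 1 that read −0.63 and −0.90 against 0.79 and 0.62. ALK, a receptor tyrosine kinase gene on chromosome 2, lay in a window of 9 probes that read −0.92 and −0.96 against 0.40 and 0.40. All 4 windows went from the late to the early side of the median. The other 6 leading windows read earlier by 1.31 to 1.43 and lay in regions over FGF12, a fibroblast growth factor homologue gene, over LYZL1, over EN1 and MARCO, over FGFR2 and WDR11, over CTSC and GRM5, and in 1 region with no named gene. Their limma adjusted p ran from 0.0130 to 0.0172 with the 4 above.

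Among windows read later on the automated arrays, a window on chromosome 1 (108800001 to 108900000), in a region that holds VAV3 and SORT1, led with 2.03 and 1.53 on the manual against 0.13 and 0.14 on the automated arrays. The difference was −1.65 ± 0.18 (limma SE; adjusted p = 0.0130). The PDGFRA window on chromosome 4 (55000001 to 55100000), which holds a growth factor receptor gene, read 2.40 and 2.31 against 0.67 and 0.80, a difference of −1.62. It is the one leading window besides that of chromosome 18 that lost its call with the deposited log ratio (−0.70, limma adjusted p = 0.126). OR52A1, an olfactory receptor gene beside the beta-globin genes, lay in a window that read 0.17 and 0.42 against −1.20 and −1.03. ZNF322A, a zinc finger gene in the butyrophilin and histone region of chromosome 6, lay in a window that read 0.55 and 0.62 against −0.88 and −0.74. ACTL6A, a subunit gene of chromatin remodelling complexes near PIK3CA on chromosome 3, lay in a window that read 0.71 and 0.89 against −0.66 and −0.37. These last 3 crossed from the early to the late side of the median. Another 3 leading windows read later, with differences of −1.31 to −1.27, in regions over PDE4B, over HLF and MMD, and over 23 called windows at 500001 to 4000000 on chromosome 18. That last region holds TYMS, the gene of thymidylate synthase, and SMCHD1, a chromatin protein gene of the inactive X chromosome, and its leading window gave −1.06 with the deposited log ratio (limma adjusted p = 0.0572).

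**Figure D4:**
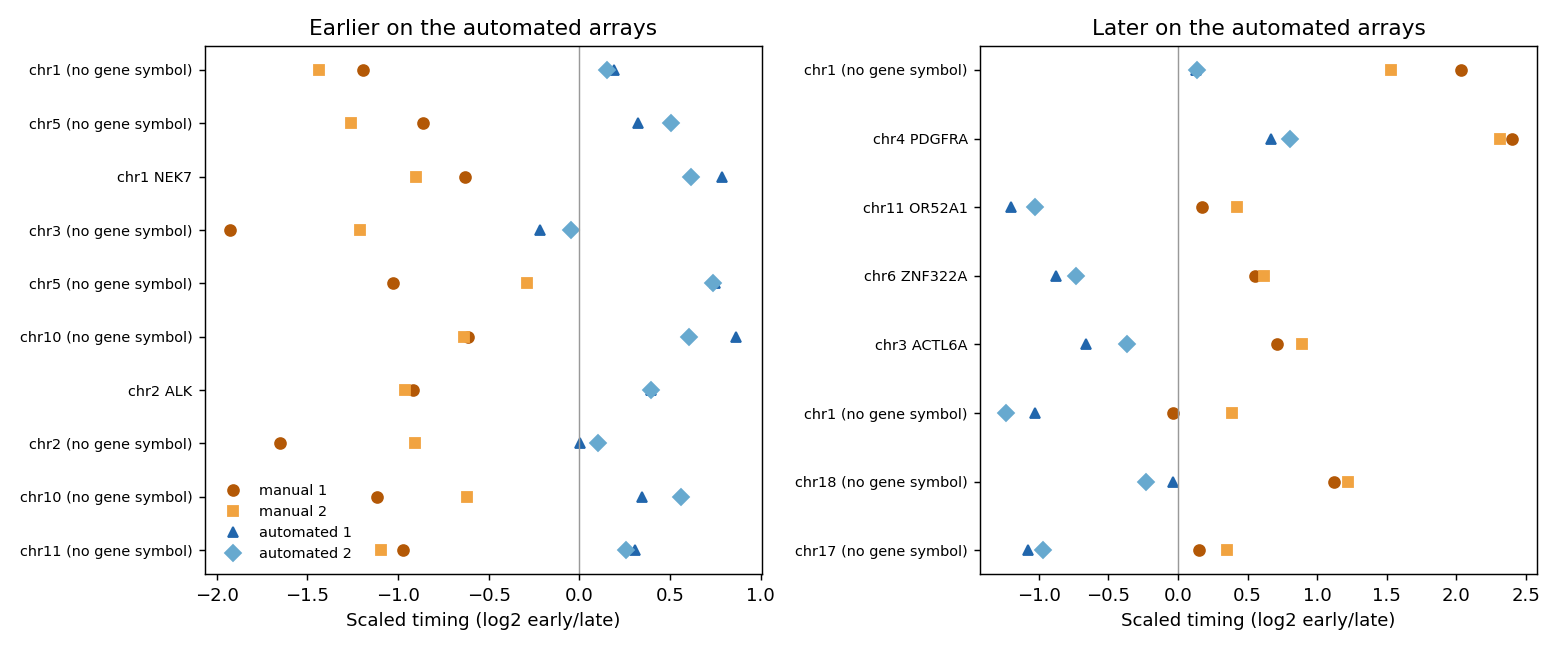
Scaled timing (x axis, log2 early over late) on each array in the leading window of 10 regions that read earlier (left) and 8 that read later (right; y axis, in order of difference, labelled by chromosome and gene symbol). The windows were chosen among called windows in which the manual and automated arrays do not overlap. At PDGFRA all 4 arrays remain on the early side, at 2.40 and 2.31 against 0.67 and 0.80.

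Gene families known for their timing were read beside all windows, of which 3.77% were earlier and 4.78% later. Of 52 windows with an olfactory receptor gene, 1 was earlier and 7 were later, with a median difference of −0.03. OR52A1 had the largest difference among them. It lies with OR51B4, OR51I2, OR51Q1, OR52B6 and OR56B1 in the later run of 10 windows on chromosome 11 described above. The 7 later windows are thus not all separate observations. Zinc finger genes of chromosome 19 had 0 earlier and 2 later of 133 windows. Their median was 0.09, below the 0.21 of chromosome 19 as a whole, and the window of ZNF582 differed most (−0.65, not called). Of 250 windows over 15 giant genes of common fragile sites, 9 were earlier and 4 later, and a window of CNTNAP2, a neuronal adhesion gene, differed most, at −0.32 and −0.46 against 0.40 and 0.52. Glutamate and GABA receptor genes had 5 earlier and 2 later of 143 windows, with GRIN2B, an NMDA receptor subunit gene, later at −0.33 and −0.62 against −1.53 and −1.44. Collagen genes, which make the matrix that bone cells secrete, had 7 earlier and 1 later of 91 windows and a median of 0.10, and COL22A1 differed most, at −0.86 and −0.998 against 0.03 and −0.01. Ribosomal protein genes and pseudogenes had 4 earlier and 2 later of 94 windows, the largest difference being at the pseudogene RPL21P44 in the PDGFRA run. No window of the histone cluster genes (8 windows), protocadherin genes (43), HOX genes (9) or keratin genes (23) was called, and their medians were −0.12, −0.06, 0.12 and 0.16. Their largest differences were −0.53 at HIST1H1D, −0.56 at PCDH9, 0.43 at HOXB2 and 0.70 at KRTAP11-1. No test was made of any list.

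The stretch around PDGFRA and KIT was singled out after its values were seen, because total signal there differed between methods by more than in any other 1-Mb block. Brightness was centred and scaled like timing, and its median over windows was taken in 2529 blocks of 1 Mb. The median difference between methods lay between −0.49 and 0.47 in the middle 98% of blocks. Only 3 blocks lay below −1, and they were the 3 neighbours at 53000001 to 56000000 on chromosome 4. The block at 54000001 to 55000000 read 2.04 and 2.11 on the manual arrays against 0.70 and 0.74 on the automated ones. Thus all 4 arrays were brighter there than at the median window, and the manual arrays more so. In all, 28 of the 45 windows between 52700001 and 57500000 had a brightness difference of −1 or lower, of 56 in the genome. They were chosen by that difference, so their lack of overlap between methods is not a separate result. Timing in these 28 windows went both ways. It was later on the automated arrays in 13, among them FIP1L1, LNX1, CHIC2 and PDGFRA. It was earlier in 3, among them both windows of KIT, the stem cell factor receptor gene. Of all windows 4.78% were later and 3.77% earlier. The 13 include the run of 10 windows at 54200001 to 55200000 already described, so they are not separate observations. The KIT window at 55600001 read −2.63 and −2.17 on the manual arrays against −1.35 and −1.12 on the automated ones. Both extremes, the early peak at PDGFRA and the late trough at KIT, thus lay further from 0 on the manual arrays after scaling. Scaling multiplied timing by 1.44 and 1.48 on the manual arrays and by 0.75 and 0.78 on the automated ones. Divided by these factors, the values of this KIT window overlap between groups. The PDGFRA window still differed by −0.65 without scaling. Before scaling, the log2 brightness of the PDGFRA window relative to the array's median was 1.99 and 2.05 against 0.85 and 0.44. Whether the brightness difference bears on the timing difference was not tested; across all windows the 2 differences correlated at 0.0454 with brightness scaled and at −0.0465 with it unscaled, as a description.

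**Figure D5:**
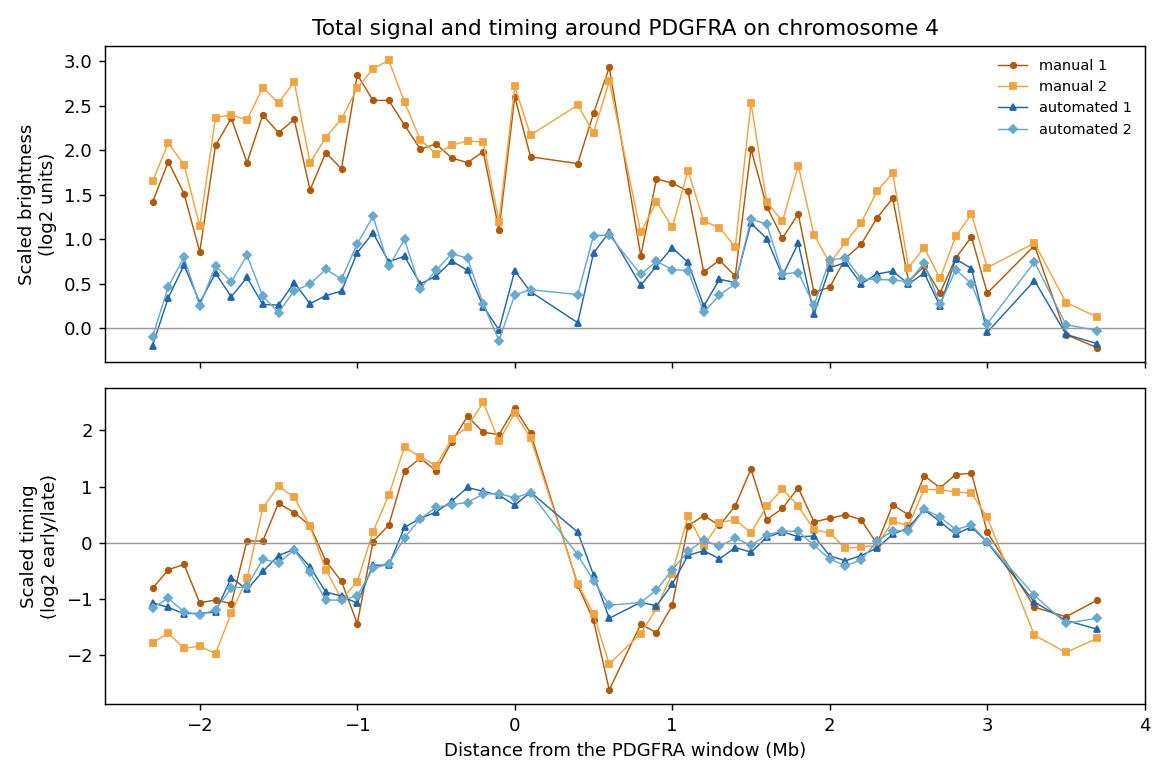
Scaled brightness (top, log2 units) and scaled timing (bottom, log2 early over late) of 100-kb windows on each array, by distance from the PDGFRA window in Mb (x axis). The manual arrays are brighter through the stretch, with block values of 2.04 and 2.11 against 0.70 and 0.74. In scaled timing they reach further both at PDGFRA and at KIT. At KIT the groups overlap once the scaling is undone.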

How the data were processed

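Spot intensity in each channel and a log10 ratio of late over early were deposited by the authors. Per the file headers both come from Agilent Feature Extraction 11.5.1.1, while the submitters' processing notes give 9.1. Intensities (mean signal, median local background) were background-corrected by normexp (offset 50) in limma 3.58.1 under R 4.3.3. Control spots and spots with outlier marks were dropped, saturated spots kept and repeated probes averaged, leaving 161175 to 161197 autosomal probes per array. The number of arrays limits the precision. Probe positions are hg19, as deposited. Of 23770 gene names, 16202 matched a RefSeq symbol or synonym; the RefSeq table is on GRCh38 and its coordinates were not used. Exon, intron and UTR positions were not used here. The K562 array labelled 44k was not used.

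Windows were compared with limma (lmFit, eBayes, Benjamini-Hochberg adjustment) on the 4 U2OS arrays. Named were the 10 regions per direction with the largest leading difference among called windows without overlap, BMP1, DPPA2, the longest runs and, per gene list, the gene whose window differed most; ties in run length were all named, and 2 of the regions that read later, with the run and probe in them, are not reported here. Probes were printed by GC nearest the window mean, leaving out probes within a named gene. The members, lists and alternatives were chosen with earlier results of these data known. Same-numbered manual and automated arrays deviated with a correlation of −0.0209, so numbers were not taken as pairs. Scaling and fit, but not windowing, were checked on simulated windows whose noise was independent between neighbours, unlike that of the data. Of 200 windows shifted by 1 unit, 88.5% were recovered, with 1 false call. Alternatives covered background, offset, loess, scaling, centring, dim probes, window size, probe minimum, chromosome X, trends, each array left out and a replicate block.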

Additional observations from a re-analysis of the deposited data

How the results depend on the processing

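The count of 1961 called windows moved by over 1.5 times with no scaling (14653, 47.4% earlier on automated), a normexp offset of 0 (970, 52.9%), the deposited log ratio (427, 49.9%), that ratio with quantile normalization (1006, 51.4%, added after seeing the data), loess (1276) and without dim probes (904 of 7712 windows, 39.2%). At a limma adjusted p under 0.01 it was 0, with 6525 windows at an unadjusted p under 0.05. Leaving out each array gave 187 to 8455 windows, 42.3% to 51.9% of them earlier. The share earlier, 44.1%, also moved with quantile normalization (50.9%), mean centring (47.5%), 50-kb windows (30.9%), a minimum of 5 probes (36.7%) and removal of a trend on GC (48.0%), timing (47.9%), brightness (51.2%) or all of these (48.9%, added), so its direction is not settled. The replicate block, which pairs arrays by number, called 3140 windows (47.0% earlier), among them all 1961.

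The brightness contrast reversed with no scaling (0.42), with the deposited log ratio (0.26), and in the latest (0.092) and second-latest (0.068) timing quintiles, and ran from −0.16 to 0.084 with each array left out. The timing contrast reversed with no scaling (1.22), quantile normalization (0.020) and a minimum of 5 probes (0.019). The gene content contrast reversed without dim probes (−0.079), in 250-kb windows (−0.012) and in the latest 2 quintiles (−0.016). The GC contrast kept its sign in every setting run, from 0.01 within the latest quintile, where the groups overlapped, to 0.65 with no scaling. With each array left out, GC ran from 0.15 to 0.33, timing from −0.20 to −0.12 and gene content from 0.06 to 0.10. DPPA2, at −0.0043, changed sign without manual 2 (0.23) and without automated 1 (0.0062), in a range from −0.24 to 0.23 over the arrays left out. The cause of these changes was not tested. Slide as a random block was not run, since no correlation could be estimated. Spots near background, most frequent on the manual arrays, limit what the comparison can read.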
